A study of Mus musculus with 24 samples.

Results

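The genes described here encode histone lysine and arginine methyltransferases. The list named 38 genes, and a gene was taken as measured where a probe's annotation mapped to its symbol or an alias. Of the 38, 35 had a matched probe among the 19751 genes on the array with such a match, and Kmt2a, Setd1b and Setdb2 had none. Where a gene had several probes, the brightest over the 24 arrays stood for it, and 14 of the 35 had more than 1 probe, 55 probes in all.

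Histone methyltransferases transfer methyl groups from S-adenosylmethionine to lysine or arginine side chains of histones, and the residue that is methylated sets whether the mark accompanies active or silenced chromatin. S-adenosylmethionine is made from methionine, and folate, vitamin B12, choline and betaine feed methyl groups into the cycle that regenerates it. In the hippocampus several of these enzymes, among them Kmt2b and Ehmt1, are known for their part in memory.

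The study measured hippocampal RNA of mice by one-color array, asking whether the diet of fathers or grandfathers altered gene expression in descendants. CD F1 mice were offspring of fathers given a control diet, and MD F1 mice were offspring of fathers given a methyl donor diet (3MS ZM). CD F2 and MD F2 mice were the corresponding grandoffspring. Per kg of chow, by the published methods, the supplement added choline and betaine at 15 g each, 150 mg of zinc and 7.5 g of methionine. It also added vitamin B12 at 1.5 mg and folic acid at 15 mg per kg, and it was fed for 6 weeks before mating. The F1 and F2 mice themselves ate control diet. By the labels the F1 mice were congenic C57BL/6J x 129S6/SvEv hybrids, the F2 mice were mixed hybrids of the same strains, and all were 4 weeks old, whereas the published methods call them adult. Each of the 4 groups had 6 arrays, and each array held RNA pooled from 4 mice, so that differences between single mice were averaged within an array.

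Each of 6 slides held 2 arrays of each diet from a single generation, so generation and slide cannot be told apart in the levels. The median intensity of an array ran from 251 to 318 in CD F1, from 167 to 262 in MD F1, from 151 to 262 in CD F2 and from 148 to 262 in MD F2. In F1 it was lower in the MD arrays (exact permutation p = 0.0173, adjusted p = 0.303 over 56 measures). Between 33926 and 37013 spots were well above background on an F1 array, and between 27383 and 34661 on an F2 array. With 6 arrays to a group, every estimate below is imprecise.

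All 10 marker genes of hippocampal neurons were above background on each of the 24 arrays, but so were all 8 striatum genes on every F1 array, so this does not tell brain regions apart. A few arrays stood apart. MD F1 replicate 6 had a mean correlation of 0.985 with the other arrays of its generation, where the remaining F1 arrays had 0.992 to 0.994. CD F2 replicate 6 had 0.977 and MD F2 replicate 3 had 0.974, where the remaining F2 arrays had 0.986 to 0.988. Some values are also given without these arrays.

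The sex of the pooled mice is not in the labels, and the published methods state that both sexes were assessed in balance. A sex measure was computed for each array as the mean log2 signal of 4 Y-linked genes minus that of Xist. Its mean was -2.03 ± 0.16 (SD) in CD F1 and -1.29 ± 0.86 in MD F1 (exact permutation p = 0.0498, adjusted p = 0.398). In F2 the measure was far more spread within each group, with a mean of 1.73 ± 7.26 in CD F2 and 4.28 ± 5.78 in MD F2 (exact permutation p = 0.379, adjusted p = 0.95). Some values are also given with this measure as a covariate.

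All 35 members were well above background on all 24 arrays, so each was transcribed at a measurable level in the hippocampus of every group. Group means of log2 signal lay between 7.74 and 15.63 in CD F1 and between 7.87 and 15.13 in CD F2. Signals of different probes are not on a common scale, and no member's level is set against another's. The median SD of a member between arrays of a group was 0.12 in CD F1, 0.17 in MD F1, 0.16 in CD F2 and 0.15 in MD F2. Ash1l had the largest SD in MD F1, 1.17, and Suv39h1 had the largest in both F2 groups, 0.93 in CD F2 and 1.06 in MD F2.

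In F1, no member passed the test for an effect of paternal diet. limma called 0 of 35 members at a false discovery rate under 0.1, the lowest adjusted p being 0.208, while 13 of all 39429 probes (0.033%) were called. At an unadjusted p under 0.05, 8 of 35 members (22.9%) were found, beside 2640 of 19751 genes (13.4%). Kmt2b and Prmt1 had higher signals in MD F1, and Nsd2, Nsd3, Ash1l, Suv39h1, Prdm2 and Prmt8 had lower signals. In all, 14 members were higher and 21 lower, with a median log2 fold change of -0.06 beside 0.02 for all genes. Most differences were small: 31 of 35 members were under 0.25 in size, and the 95% confidence interval lay within 0.5 of 0 for 31 of 35. Without scaling between arrays the median of all genes was itself -0.25, and then 1 of 35 members was higher and the member median was -0.30. On that unscaled signal limma called 6 of 35 members in F1, beside 7952 of 39429 probes. They were Kmt2d (-0.46), Nsd2 (-0.67), Nsd3 (-0.43), Suv39h1 (-0.86), Prdm2 (-0.53) and Prmt8 (-0.55), with adjusted p between 0.0581 and 0.0824.

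The F1 count of 8 depended on single arrays, on the scaling, on the choice of probe and on the sex measure. It was 11 without scaling between arrays, beside 31.3% of all genes, and 10 with array weights, beside 17.4%. It was 4 without CD F1 replicate 2, 3 or 4, beside 10.5%, 10.6% and 10.2% of all genes. Without CD F1 replicate 1 or MD F1 replicate 5 it was 5, beside 14.5% and 12.0045%. The count was 8 without MD F1 replicate 6, of which 5 were among the original 8, beside 14.1% of all genes. With slide as a block it was 6, all among the 8, beside 13.0%, and the 2 lost were Ash1l and Prdm2. With the sex measure as a covariate it was 4, beside 10.9%, and Nsd2 alone was shared with the original 8. With the mean of a gene's probes it was 6, of which 4 were among the original 8, beside 13.4%. Within slides 1, 2 and 3, the median MD minus CD difference of the members was 0.01, -0.05 and 0.00.

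In F2, limma called 0 of 35 members for grandpaternal diet, with a lowest adjusted p of 0.89, and 0 of 39423 probes (0%). At an unadjusted p under 0.05, 2 of 35 members (5.71%) were found, Ehmt1 and Prmt1, both lower in MD F2, beside 1116 of 19750 genes (5.65%). The members were spread evenly around 0, with 17 higher and 18 lower and a median of -0.00, and without scaling between arrays 11 were higher and 24 lower. The count of 2 was 0 without CD F2 replicate 1, 4 or 6, beside 4.26%, 6.73% and 6.76% of all genes, and 0 without MD F2 replicate 4 or 5, beside 4.40% and 4.21%. It was 1 without CD F2 replicate 3 or MD F2 replicate 6, beside 4.65% and 4.23%, and 4 without CD F2 replicate 2, beside 5.07%. Without both arrays that stood apart it was 3, of which 1 was among the original 2, beside 6.02%, and with slide as a block it was 3, beside 6.26%. Within slides 4, 5 and 6, the median difference of the members was -0.01, -0.02 and -0.00.

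The F1 effect was also tested against the F2 effect. limma called 0 of 35 members, with a lowest adjusted p of 0.42, and 5 of 39423 probes (0.0127%). At an unadjusted p under 0.05, 2 of 35 members (5.71%) were found, Prmt1 and Ash1l, beside 1579 of 19750 genes (7.99%). This count was 4 without CD F1 replicate 1, MD F1 replicate 1, CD F2 replicate 2 or CD F2 replicate 5, beside 8.17%, 8.68%, 7.47% and 8.61% of all genes, and 1 without CD F1 replicate 2, beside 6.73%. The difference uses the same arrays as the F1 and F2 comparisons and is not a separate set of samples.

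**Figure D1:**
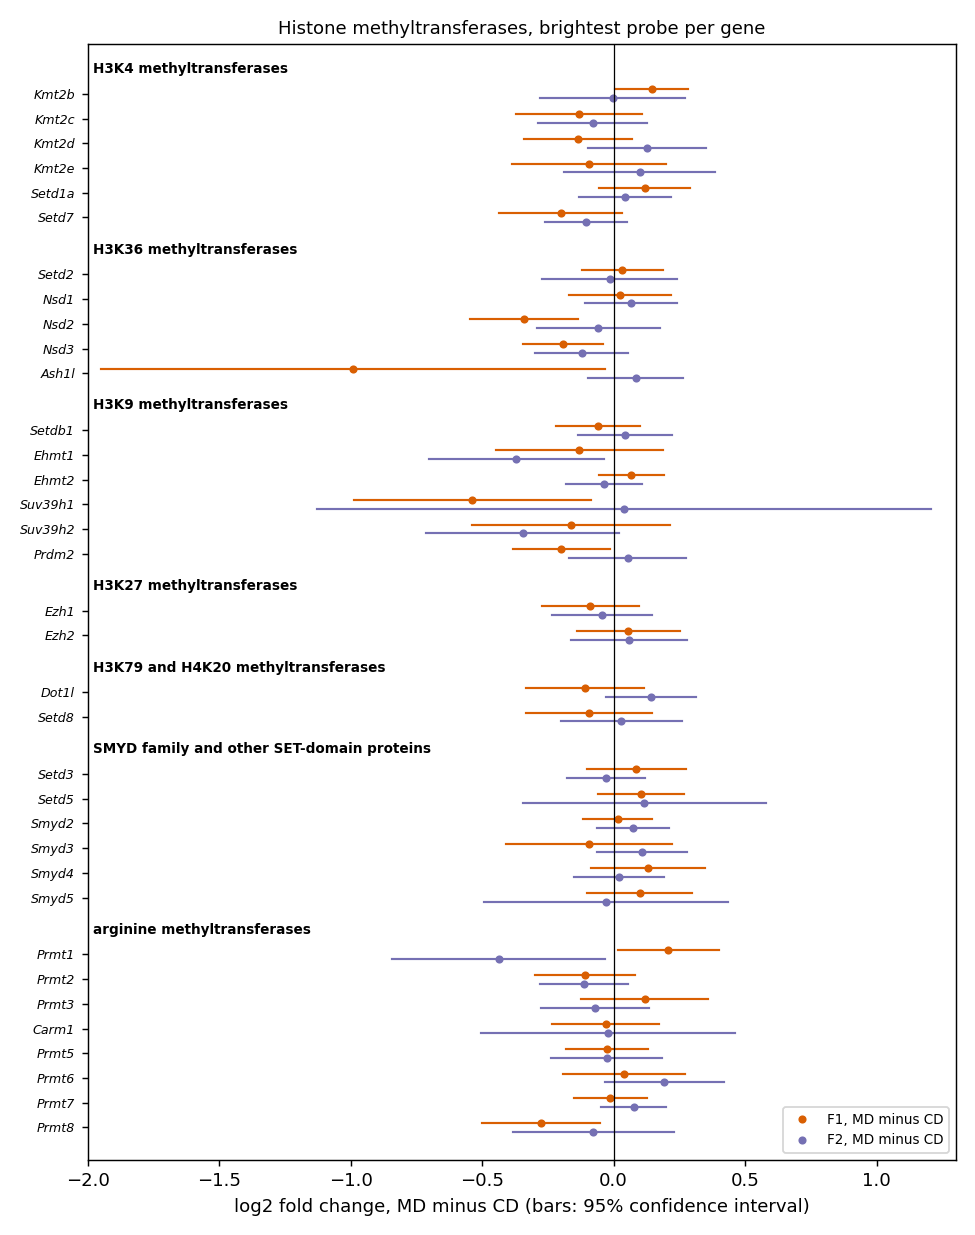
Log2 fold change (MD minus CD, x axis) of each of the 35 members, grouped by histone residue or enzyme family (y axis), in F1 and F2. Points are limma estimates and bars are 95% confidence intervals. In F1 14 members lie above 0 and 21 below, and without scaling between arrays 1 of 35 lies above 0; Ash1l has the lowest F1 value, -0.99.

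Methyltransferases of lysine 4 of histone H3 (H3K4) write a mark of active promoters and enhancers. Of the 6 measured, 2 were higher and 4 lower in MD F1, with a median log2 fold change of -0.11, and 3 were higher and 3 lower in MD F2, with a median of 0.02. Without scaling between arrays 0 of 6 were higher in F1.

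Kmt2b, which methylates this residue at promoters and is needed for memory formation, had log2 signals between 11.90 and 12.05 in CD F1 (median 11.99) and between 11.94 and 12.27 in MD F1 (median 12.14). In 5 of the 6 MD F1 arrays it was above the highest CD F1 array, and the groups overlapped through the remaining MD array. The log2 fold change was 0.15 ± 0.06 (SE, limma adjusted p = 0.333), and without scaling between arrays it was -0.10, against the shift of all genes of -0.25. In F2 the signals ranged between 11.59 and 12.26 in CD (median 12.01) and between 11.73 and 12.19 in MD (median 11.93). The F2 groups lay on top of each other, at -0.00 ± 0.13 in log2 fold change, which was 0.02 with arrays scaled to the 75th percentile. Kmt2d, which primes enhancers by monomethylation, ranged between 8.04 and 8.56 in CD F1 (median 8.33) and between 8.10 and 8.39 in MD F1 (median 8.16). In F2 it ranged between 7.65 and 8.26 in CD (median 7.79) and between 7.90 and 8.08 in MD (median 8.004). The MD F2 arrays all exceeded the CD F2 median but lay inside the CD range. The Kmt2d fold changes were -0.14 ± 0.09 in F1 and 0.13 ± 0.10 in F2 (adjusted p = 0.512 and 0.936), and their difference was -0.26 ± 0.14 (adjusted p = 0.64). With the sex measure the Kmt2d value in F1 was -0.08. Its other probes gave -0.48 and -0.84 in F1, the latter with an adjusted p of 0.204, so the probes differed in the size of the F1 effect. In F2 these probes gave 0.03 and -0.18, and the mean of the Kmt2d probes gave -0.01, so the F2 direction depends on the probe.

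The other members of this group, Kmt2c, Kmt2e, Setd1a and Setd7, had log2 fold changes from -0.20 to 0.12 in F1 and from -0.11 to 0.10 in F2.

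H3K36 methyltransferases mark transcribed gene bodies and intergenic chromatin. Of the 5 measured, 2 were higher and 3 lower in MD F1, with a median of -0.19, and the 3 lower genes, Nsd2, Nsd3 and Ash1l, all had an unadjusted p under 0.05, beside 13.4% of all genes, while with slide as a block Ash1l did not. In MD F2, 2 were higher and 3 lower, with a median of -0.02, which was 0.00 with arrays scaled to the 75th percentile.

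Nsd2, which dimethylates H3K36, had the lowest adjusted p among the brightest probes of the members. It ranged between 8.57 and 8.94 in CD F1 (median 8.74) and between 8.23 and 8.57 in MD F1 (median 8.42). In 5 of 6 MD F1 arrays Nsd2 was below the lowest CD F1 array. The log2 fold change was -0.34 ± 0.09 (95% confidence interval -0.55 to -0.14, adjusted p = 0.208; exact permutation p = 0.00433). It was -0.30 without MD F1 replicate 6, -0.24 with the sex measure as a covariate and between -0.51 and -0.18 within the 3 slides. Without scaling between arrays Nsd2 was at -0.67 and passed the threshold (adjusted p = 0.0581). The other probe of Nsd2, however, gave 0.04, and the mean of its probes gave -0.15. In F2 the gene ranged between 8.07 and 8.64 in CD (median 8.25) and between 8.02 and 8.43 in MD (median 8.23), overlapping widely. The F2 fold change was -0.06 ± 0.11, and the test of the difference gave -0.29 ± 0.14 (adjusted p = 0.62). The other Nsd2 probe gave -0.20 in F2 and had the opposite direction in the difference, 0.24, and the mean of the probes gave -0.03 there.

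Nsd3, a close relative of Nsd2, ranged between 11.63 and 12.05 in CD F1 (median 11.77) and between 11.57 and 11.71 in MD F1 (median 11.60). Here too 5 of 6 MD F1 arrays were below the lowest CD F1 array, and the exception was replicate 3. limma put the log2 fold change at -0.19 ± 0.07 (adjusted p = 0.277; exact permutation p = 0.00433). The other Nsd3 probes gave 0.58 and -0.17, and the mean of the probes gave 0.07, so the direction depends on the probe. Its F2 signals ranged between 10.96 and 11.24 in CD (median 11.10) and between 10.78 and 11.11 in MD (median 10.98), with a fold change of -0.12 ± 0.08 (adjusted p = 0.919).

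Ash1l, which counters Polycomb silencing, was the only member whose F1 groups did not overlap, 1 of 35 (2.86%) beside 329 of 19616 genes (1.68%). It ranged between 10.63 and 11.13 in CD F1 (median 10.81) and between 7.51 and 10.53 in MD F1 (median 10.32). All MD F1 arrays were below all CD F1 arrays, and replicate 6, at 7.51, was far below the next lowest, at 10.04. The log2 fold change was -0.99 ± 0.44 (95% confidence interval -1.95 to -0.03, adjusted p = 0.337; exact permutation p = 0.00216, the smallest that 924 splits allow). Without MD F1 replicate 6 it was -0.52 (adjusted p = 0.104), and with the sex measure as a covariate it was -0.19 (adjusted p = 0.871). Within the 3 slides it was between -1.94 and -0.49, and with slide as a block the adjusted p was 0.355. In F2 Ash1l ranged between 10.65 and 10.94 in CD (median 10.73) and between 10.63 and 10.99 in MD (median 10.89). These groups overlapped, as did those of all 35 members in F2, where 73 of 19520 genes (0.374%) did not. The F2 fold change was 0.08 ± 0.08. The difference between generations was -1.07 ± 0.47 (adjusted p = 0.555), and -0.59 without MD F1 replicate 6 (adjusted p = 0.227).

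Setd2, which trimethylates H3K36, was at 0.03 in F1 and -0.02 in F2. Nsd1, the third enzyme of the Nsd family, had 0.02 in F1 and 0.07 in F2.

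H3K9 methyltransferases write marks of silenced chromatin. Of the 6 measured, 5 were lower in MD F1, with a median of -0.15, as they were with arrays scaled to the 75th percentile, and 6 of 6 were lower without scaling. In MD F2, 3 were higher and 3 lower, with a median of 0.00, and without scaling 6 of 6 were lower.

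Ehmt1, which forms a complex with Ehmt2 that dimethylates H3K9, had its lowest p in F2. It ranged between 12.91 and 13.86 in CD F2 (median 13.41) and between 12.92 and 13.26 in MD F2 (median 13.03). All 6 MD F2 arrays were below the CD F2 median but none was below the lowest CD F2 array. The F2 log2 fold change was -0.37 ± 0.15 (adjusted p = 0.89; exact permutation p = 0.0476), and it was -0.27 without the arrays of F2 that stood apart and between -0.71 and 0.02 within slides. Its other probe gave -0.04. In F1 Ehmt1 ranged between 11.04 and 11.60 in CD (median 11.47) and between 10.79 and 11.56 in MD (median 11.27). Its F1 fold change was -0.13 ± 0.15, which was -0.19 without MD F1 replicate 6 and -0.26 with the sex measure. Leaving out each array gave -0.20 to -0.04 in F1, and within slides Ehmt1 was between -0.64 and 0.20.

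Suv39h1 and Suv39h2 trimethylate H3K9 in heterochromatin near centromeres. Suv39h1 ranged between 8.94 and 9.35 in CD F1 (median 9.12) and between 7.71 and 9.06 in MD F1 (median 8.72). In 4 of 6 MD F1 arrays it was below the lowest CD F1 array. This gave a log2 fold change of -0.54 ± 0.21 (adjusted p = 0.295), -0.36 without MD F1 replicate 6 and -0.12 with the sex measure as a covariate (adjusted p = 0.746). In F2 Suv39h1 ranged between 7.83 and 10.03 in CD (median 9.37) and between 8.35 and 11.16 in MD (median 8.75). The spread within each F2 group was larger than the difference between them, 0.04 ± 0.53, which was -0.01 with arrays scaled to the 75th percentile and -0.05 without scaling. With the sex measure it was 0.27. Without MD F2 replicate 6, the array at 11.16, the difference was -0.37. Suv39h2 ranged between 11.68 and 12.26 in CD F1 (median 12.19) and between 11.34 and 12.30 in MD F1 (median 11.94). Its F1 fold change was -0.16 ± 0.17, which was -0.24 without MD F1 replicate 6 and -0.35 with the sex measure. Leaving out each array gave -0.24 to -0.05 in F1. Within slides Suv39h2 was between -0.75 and 0.23, and the mean of its probes gave -0.01. In F2 it ranged between 13.43 and 14.42 in CD (median 13.85) and between 13.33 and 13.88 in MD (median 13.52), with a fold change of -0.35 ± 0.17 (adjusted p = 0.895). Its other probe had the opposite direction in both generations, 0.14 in F1 and 0.18 in F2.

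Prdm2, a PR-domain enzyme and tumor suppressor, ranged between 7.54 and 7.99 in CD F1 (median 7.70) and between 7.35 and 7.65 in MD F1 (median 7.56). All 6 MD F1 arrays were below the CD F1 median, and 2 were below the lowest CD array. The log2 fold change was -0.20 ± 0.08 (adjusted p = 0.324), while the other probe gave 0.13. In F2 Prdm2 ranged between 8.15 and 8.60 in CD (median 8.35) and between 8.27 and 8.65 in MD (median 8.39), a fold change of 0.05 ± 0.10 that was -0.04 without scaling. The remaining members, Setdb1 and Ehmt2, lay between -0.06 and 0.07 in F1 and between -0.04 and 0.04 in F2.

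Ezh1 and Ezh2, the catalytic subunits of Polycomb repressive complexes that methylate H3K27, had log2 fold changes of -0.09 and 0.06 in F1 and of -0.04 and 0.06 in F2. A further probe of Ezh1 gave -0.65 in F1 (adjusted p = 0.214).

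Dot1l, the methyltransferase of H3K79, ranged between 13.09 and 13.43 in CD F1 (median 13.31) and between 12.80 and 13.39 in MD F1 (median 13.25), with a log2 fold change of -0.11 ± 0.10, which was -0.03 without MD F1 replicate 6. Its F2 signals ranged between 11.68 and 12.15 in CD (median 11.89) and between 11.99 and 12.12 in MD (median 12.06), with a fold change of 0.14 ± 0.08 (adjusted p = 0.912). The MD F2 arrays were close together and all above the CD F2 median, yet within the CD range. The difference between generations was -0.26 ± 0.13 (adjusted p = 0.629), and the F1 value was 0.07 once the sex measure was a covariate. Setd8, which monomethylates H4K20, had -0.09 in F1 and 0.03 in F2.

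The SMYD and other SET-domain proteins, several of which also methylate proteins other than histones, were higher in MD F1 for 5 of 6, with a median of 0.09, but without scaling between arrays for 0 of 6, with a median of -0.17 against the shift of all genes. Setd3, Setd5, Smyd2, Smyd3, Smyd4 and Smyd5 ranged from -0.09 to 0.13 in F1 and from -0.03 to 0.12 in F2, where 4 of 6 were higher and without scaling 3 of 6 were. Other probes of Smyd3 gave -0.41 (adjusted p = 0.298) and -0.19 in F1, where its brightest probe gave -0.09. In F2 these probes gave -0.12 and -0.10, opposite in direction to the brightest at 0.11.

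Of the 8 arginine methyltransferases, 3 were higher and 5 lower in MD F1, with a median of -0.02, and 2 were higher and 6 lower in MD F2, with a median of -0.05. Without scaling, 1 of 8 was higher in F1.

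Prmt1, the main enzyme for asymmetric dimethylation of arginine, had fold changes of opposite sign in the 2 generations, neither of which passed the test. It ranged between 14.47 and 14.82 in CD F1 (median 14.56) and between 14.64 and 15.10 in MD F1 (median 14.75). All 6 MD F1 arrays were above the CD F1 median, and 2 were above the highest CD array. limma put the log2 fold change at 0.21 ± 0.09 (adjusted p = 0.323), 0.14 without MD F1 replicate 6 and 0.09 with the sex measure as a covariate. In F2 it ranged between 13.97 and 14.28 in CD (median 14.21) and between 13.00 and 14.20 in MD (median 13.74). The low MD F2 arrays were replicates 4, 5 and 6, at 13.55, 13.51 and 13.00. In all, 4 of 6 MD F2 arrays were below the lowest CD F2 array and 6 of 6 were below the CD F2 median. The F2 fold change was -0.44 ± 0.18 (adjusted p = 0.89), -0.49 without the F2 arrays that stood apart, -0.29 without MD F2 replicate 6 and -0.50 with the sex measure in the model. The difference between generations was 0.66 ± 0.22 (95% confidence interval 0.21 to 1.11, adjusted p = 0.42). It was 0.72 with array weights, where it passed the threshold (adjusted p = 0.0509), the adjusted p under the other alternatives being no lower than 0.261. Without scaling between arrays Prmt1 was at 0.02 in F1, -0.43 in F2 and 0.45 in the difference (adjusted p = 0.7). Within slides Prmt1 was between 0.12 and 0.35 in F1 and between -0.49 and -0.40 in F2, and its other probe gave 0.18 and -0.49.

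Markers of choroid plexus and of motile cilia and ependyma had the same pair of directions as Prmt1. All 8 of 8 choroid plexus genes were higher in MD F1, with a median log2 fold change of 0.57, and all 8 were lower in MD F2, with a median of -2.26, and 0 of 8 had an unadjusted p under 0.05 in either generation in limma. Their summed signal ranged between 3745 and 102109 in CD F1 (median 66474) and between 4000 and 227759 in MD F1 (median 97439). Its F2 signals ranged between 2608 and 282835 in CD (median 231288) and between 3142 and 217822 in MD (median 12916). Ttr had the brightest probe of the list in all groups, and Kcne2 and Slc4a5 were at background on some F2 arrays. In CD F2 replicates 4 and 6 the mean log2 signal of the list was 7.28 and 7.58, while Prmt1 there was 14.26 and 14.28. In MD F2 replicates 4, 5 and 6, where Prmt1 was low, the list mean was 7.46, 7.32 and 7.26, and in MD F2 replicates 1, 2 and 3 it was 9.30, 12.03 and 9.26. In the difference between generations 8 of 8 choroid plexus genes were higher, with a median of 2.84, and 2 of 8 had an unadjusted p under 0.05, beside 7.99% of all genes. For the mean of the list on each array, the exact permutation p was 0.530 in F1 and 0.145 in F2 (adjusted p = 0.999 and 0.643).

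Cilia and ependyma genes were higher in MD F1 for 8 of 8, with a median of 0.32, and lower in MD F2 for 8 of 8, with a median of -0.79. At an unadjusted p under 0.05, 4 of 8 were found in F1 and 7 of 8 in F2, beside 13.4% and 5.65% of all genes. In the difference all 8 were higher, with a median of 1.07, and 7 of 8 had an unadjusted p under 0.05, beside 7.99%, and 1 was called by limma (adjusted p = 0.0661). The 8 genes were read on the same arrays, so they are not separate replicates of a diet effect. For the mean of the list on each array, the exact permutation p was 0.0866 in F1 and 0.0216 in F2 (adjusted p = 0.485 and 0.303). The summed signal of the list ranged between 5342 and 7000 in CD F1 (median 6046) and between 6268 and 11125 in MD F1 (median 7133). In F2 it ranged between 4094 and 9058 in CD (median 6910) and between 3286 and 6170 in MD (median 3646). Mia had the brightest probe of the list, and Ak7 and Spag16 were at background on some F2 arrays. The F1 fold change of Prmt1 was 0.21 with MD F1 replicate 6 and 0.14 without it. On that array the cilia and ependyma mean was 8.16, the lowest in F1, beside group means of 8.38 in CD F1 and 8.66 in MD F1. Its choroid plexus mean was 9.59, beside group means of 9.95 in CD F1 and 10.45 in MD F1. The part of these cell types in the values of Prmt1 was not tested. In whole hippocampus, fewer cells of a type and less RNA per cell cannot be told apart.

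Astrocyte genes were lower in MD F1 for 6 of 6, with a median of -0.10. Their summed signal ranged between 61608 and 69646 in CD F1 (median 68430) and between 61035 and 67935 in MD F1 (median 62610), S100b had the brightest probe of the list, and none was at background. Median log2 fold changes of the other lists in F1 and F2 were -0.13 and -0.03 for hippocampal neurons, 0.01 and -0.00 for striatum, -0.15 and -0.11 for oligodendrocytes, -0.00 and -0.00 for microglia and -0.06 and -0.04 for endothelium. Striatum genes went both ways in F2, 4 higher and 4 lower between -0.77 and 0.31. Of these 8 genes, 3 had an unadjusted p under 0.05 in F2, beside 5.65% of all genes. Thalamus genes went both ways in F1, 3 higher and 4 lower between -0.38 and 1.05, with a median of -0.21 and a list mean of 7.85 in CD F1 and 7.92 in MD F1. Their median was 0.15 in F2, and Gbx2 and Plekhg1 were at background on some arrays. The part of these lists in the members' values was not tested.

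**Figure D2:**
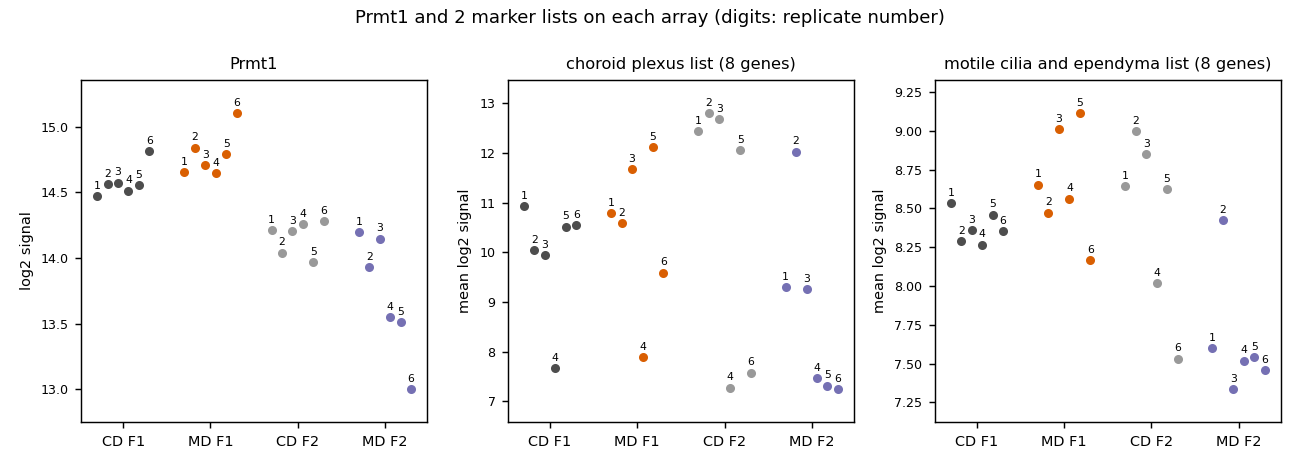
Log2 signal of Prmt1 and mean log2 signal of the choroid plexus and cilia lists (y axes) on each of the 24 arrays by group (x axis), with the replicate number as the symbol. Prmt1 is lowest in MD F2 replicates 4, 5 and 6, where the choroid plexus mean is 7.46, 7.32 and 7.26, and that mean is 7.28 and 7.58 in CD F2 replicates 4 and 6.

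Prmt8, a membrane-anchored relative of Prmt1 found mainly in brain, ranged between 10.35 and 10.92 in CD F1 (median 10.60) and between 10.17 and 10.60 in MD F1 (median 10.31). In 4 of 6 MD F1 arrays it was below the lowest CD F1 array. Its F1 log2 fold change was -0.28 ± 0.10 (adjusted p = 0.281), and within slides it was between -0.41 and -0.18. In F2 Prmt8 ranged between 10.97 and 11.66 in CD (median 11.56) and between 11.14 and 11.61 in MD (median 11.29), with a fold change of -0.08 ± 0.14. The remaining arginine methyltransferases, Prmt2, Prmt3, Carm1, Prmt5, Prmt6 and Prmt7, ranged from -0.11 to 0.12 in F1 and from -0.11 to 0.19 in F2.

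**Figure D3:**
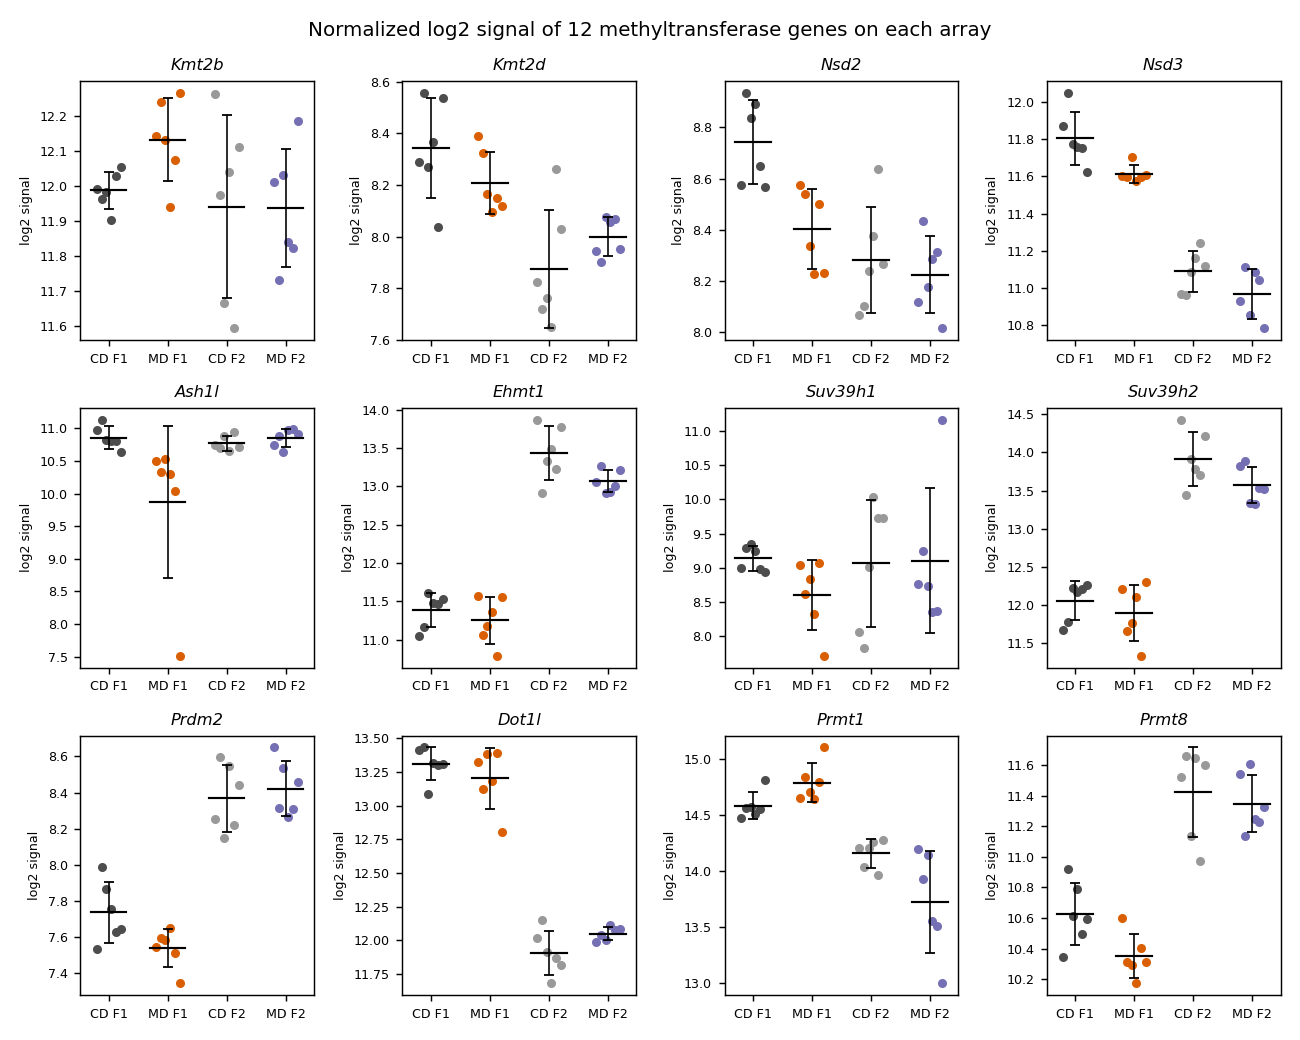
Log2 signal (y axis) on each array of 12 members, by group (x axis); points are arrays and bars are the group mean and SD of 6 arrays. Ash1l in MD F1 replicate 6 lies at 7.51, and the other MD F1 arrays of Ash1l lie between 10.04 and 10.53.

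The 23 members outside the 12 named with their ranges had log2 fold changes from -0.20 to 0.13 in F1, from -0.11 to 0.19 in F2 and from -0.20 to 0.19 in the difference. In F1 12 were higher and 11 lower, with a lowest adjusted p of 0.4. Probes other than the brightest had the same direction as the brightest for 13 of 20 in F1, 12 of 20 in F2 and 14 of 20 in the difference.

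Genes that supply or remove S-adenosylmethionine were measured for 16 of 16. In F1 8 were higher and 8 lower, limma called 0, and 2 had an unadjusted p under 0.05, both lower in MD F1, beside 13.4% of all genes. Without scaling between arrays 2 were higher and 14 lower in F1, with a median of -0.25. Mat2a, which makes S-adenosylmethionine in most tissues outside liver, ranged between 14.50 and 14.78 in CD F1 (median 14.60) and between 14.09 and 14.37 in MD F1 (median 14.19). All MD F1 arrays of Mat2a were below all CD F1 arrays, and the F1 groups did not overlap for 329 of 19616 genes (1.68%). The log2 fold change of Mat2a was -0.41 ± 0.07 (adjusted p = 0.128, exact permutation p = 0.00216). It passed the threshold without MD F1 replicate 6 (-0.40, adjusted p = 0.0956), without dim probes (0.0901), with array weights (0.0533), with all 24 arrays in the fit (0.0582) and without scaling (0.0581), and its adjusted p under the alternatives ran from 0.0533 to 0.324. In F2 Mat2a ranged between 14.15 and 14.50 in CD (median 14.34) and between 14.21 and 14.45 in MD (median 14.32), with a fold change of -0.01 ± 0.07 that was 0.06 with arrays scaled to the 75th percentile. The difference between generations was -0.38 ± 0.10 (adjusted p = 0.326).

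Ahcy, which breaks down the S-adenosylhomocysteine that methyltransferases release and that inhibits them, had -0.26 ± 0.11 in F1 (adjusted p = 0.337) and -0.22 ± 0.19 in F2. The F1 value of Ahcy was -0.65 without scaling, where it passed the threshold (adjusted p = 0.0773), and -0.05 with the sex measure (adjusted p = 0.862). Mat2b, the regulatory partner of Mat2a, had -0.03 ± 0.07 in F1 and 0.03 ± 0.09 in F2, and with arrays scaled to the 75th percentile the F1 value was 0.02. Nnmt, which spends S-adenosylmethionine on nicotinamide, had 0.27 ± 0.13 in F1 (adjusted p = 0.372), and -0.07 without scaling. In F2 limma called 0 of 16, and 1 had an unadjusted p under 0.05, beside 5.65% of all genes, which was Mtap of the methionine salvage pathway, at -0.23 ± 0.09 (adjusted p = 0.89). Gnmt, which uses S-adenosylmethionine to methylate glycine, had -0.18 ± 0.08 in F2.

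Of 34 partners of methyltransferase complexes, limma called 0, and 7 had an unadjusted p under 0.05 in F1, 4 higher and 3 lower, beside 13.4% of all genes. Wdr5, a core subunit of the complexes that methylate H3K4, had 0.21 ± 0.06 (adjusted p = 0.23), with 5 of 6 MD F1 arrays above the highest CD F1 array. Men1, another partner of Kmt2b, had 0.20 ± 0.07 (adjusted p = 0.259). Btg1, which binds Prmt1, had -0.26 ± 0.09 (adjusted p = 0.261). Without scaling between arrays Wdr5 was at -0.04 and Men1 at -0.01, against the shift of all genes, and Btg1 was at -0.49 and passed the threshold (adjusted p = 0.0799). Under the alternatives the F1 value of Btg1 ran from -0.49 to -0.13, and its adjusted p from 0.0799 to 0.621. In F2 0 of 34 had an unadjusted p under 0.05, beside 5.65% of all genes, and the lowest belonged to Wdr82 at 0.12 ± 0.06, Hcfc1 at -0.11 ± 0.06 and Mllt1 at 0.11 ± 0.07.

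Histone demethylases, which remove the marks, had an unadjusted p under 0.05 for 1 of 20 in F1 and 3 of 20 in F2, with 0 called by limma in either, beside 13.4% and 5.65% of all genes. Kdm7a had -0.33 ± 0.14 in F1 (adjusted p = 0.326), and -0.67 without scaling, where it passed the threshold (adjusted p = 0.0804). Under the alternatives the F1 value of Kdm7a ran from -0.67 to -0.19, and its adjusted p from 0.0804 to 0.702. Kdm4c and Kdm2a had 0.13 ± 0.06 and 0.23 ± 0.14 in F1, and -0.12 and -0.02 without scaling. In F2 Kdm4d, which demethylates H3K9, ranged between 5.03 and 6.10 in CD (median 5.94) and between 6.18 and 7.17 in MD (median 6.26). All MD F2 arrays of Kdm4d were above all CD F2 arrays, and the F2 groups did not overlap for 73 of 19520 genes (0.374%). The fold change of Kdm4d was 0.59 ± 0.21 (adjusted p = 0.89, exact permutation p = 0.00216). It was 0.28 without both F2 arrays that stood apart and 0.29 with a normexp background correction. In CD F2 Kdm4d was above background on 5 of 6 arrays. Kdm5b had -0.21 ± 0.07 and Kdm8 had 0.18 ± 0.07 in F2.

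Of 10 other methyltransferases of the SET and arginine families, limma called 0, and 4 had an unadjusted p under 0.05 in F1, 2 in each direction, beside 13.4% of all genes. Kmt5b, which dimethylates H4K20, had -0.38 ± 0.10 (adjusted p = 0.213), Mecom had -0.28 ± 0.09 (adjusted p = 0.245), and Setd6 had 0.21 ± 0.08 (adjusted p = 0.272), which was -0.03 without scaling. Kmt5b and Mecom were at -0.67 and -0.70 without scaling and passed the threshold (adjusted p = 0.0581 for both), and Mecom was at -0.13 with a normexp background correction. In F2 1 of 10 was found, beside 5.65% of all genes, which was Prdm16, a PR-domain transcriptional regulator, at -0.59 ± 0.20 (adjusted p = 0.89). Its difference between generations was 0.87 ± 0.25 (adjusted p = 0.358), the same direction as the choroid plexus and cilia lists, and their part in it was not tested. Setd4 and Setmar had 0.17 ± 0.10 and 0.24 ± 0.14 in F2.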

How the data were processed

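Hippocampal RNA was measured on Agilent one-color mouse arrays. The authors deposited, per array, the processed signal of each spot as a linear intensity. It was background-subtracted by Feature Extraction 10.7.3.1 per the file headers (the published methods name another version). They also deposited a table of values they had normalized, on a linear scale, of which log2 was taken here. From the deposited intensity, log2 signals were computed, irregular spots were left out (1939 in F1, 2097 in F2), and signals were quantile-normalized within a generation, or over all 24 arrays for the difference. Each probe (39429 in F1, 39423 in F2 and in the difference) was fitted in limma 3.58.1 (R 4.3.3) with 1 term per group, and p-values were adjusted over all probes by Benjamini-Hochberg, with a threshold of 0.1. Fitted arrays per group were 6. Single array measures were compared by two-sided exact permutation over 924 splits. Python 3.11.15, pandas 2.3.3 and matplotlib 3.10.9 were used for the rest. The fit was tested on simulated data.

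Probes were matched to genes by the RefSeq accession in their annotation (26055 probes to 1 gene). The listed genes were then found by symbol or alias. Named with ranges were members with an unadjusted p under 0.05 or groups that did not overlap, filled to 12 by smallest p. Named from each related list were the 3 genes with the smallest p per generation, and always Mat2a, Mat2b and Ahcy. The members and lists were chosen with earlier results of these data known. Alternatives were scaling to the 75th percentile, no scaling, normexp background with an offset of 50 (on median signals, since mean signals are not in the files), leaving out dim probes, keeping irregular spots, the mean of a gene's probes, the authors' table, slide or replicate block, the sex measure, the code in the F2 labels, array weights, all 24 arrays, a threshold of 0.05, and leaving out arrays.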

Additional observations from a re-analysis of the deposited data

Results flagged for a closer look

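In a group of 6 arrays, an array was marked where its gap to the nearest of the others was larger, as a share of the group's range, than the 95% critical value of Dixon's test. This held for 21 of 144 groups of values (14.6%), while chance marks about 1 in 20. No explanation of these values was tested.

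Among the named members, Ash1l was lowest in MD F1 replicate 6, at 7.51 (nearest array 10.04), and Nsd3 was highest in MD F1 replicate 3, at 11.71 (nearest 11.61). Suv39h1 was highest in MD F2 replicate 6, at 11.16 (nearest 9.25), and Prmt1 was highest in CD F1 replicate 6, at 14.82 (nearest 14.57).

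Several lists were marked in MD F1 replicate 6. Their mean log2 signals there were lowest for the H3K36 enzymes (10.89) and for the H3K79 and H4K20 enzymes (11.89), and highest for the H3K27 enzymes (11.91) and the arginine methyltransferases (11.89). The H3K9 enzymes were highest in MD F1 replicate 1 (11.20). Complex partners were lowest in MD F1 replicate 5 (11.28), and the other SET and arginine methyltransferases were highest in CD F1 replicate 1 (10.12).

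Among the marker lists, the choroid plexus mean was lowest in CD F1 replicate 4 (7.68), and the cilia and ependyma mean was highest in MD F2 replicate 2 (8.43), where the microglia mean was lowest (11.09). In MD F2 replicate 6 the means of hippocampal neurons (12.002) and of astrocytes (12.46) were lowest.

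Spots above background were fewest in CD F2 replicate 6 (28000) and in MD F2 replicate 3 (27383). The mean correlation with the other arrays of the generation was lowest in CD F2 replicate 6 (0.977), MD F2 replicate 3 (0.974) and MD F1 replicate 6 (0.985).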

How the results depend on the processing

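Of 1032 values of the named members under the alternatives, 995 kept their direction and their side of the threshold, 7 passed the threshold and 30 had the opposite direction; the cause was not tested. Without scaling, when the median of all genes was -0.25 in F1, members called in F1 were 6, member medians were -0.30 in F1, -0.039 in F2 and -0.25 in the difference, and counts at an unadjusted p under 0.05 were 0 in F2 and 1 in the difference, beside 1.38% and 5.23% of all genes. With array weights the medians were -0.012 in F1 and -0.080 in the difference, the counts were 5 in F2 and 4 in the difference, beside 11.6% and 13.9% of all genes, and 1 member, Prmt1, was called in the difference, beside 543 probes. Counts were 4 in F1 with the sex measure (10.9% of all genes), and 1 in F2 with scaling to the 75th percentile (4.98%) or the mean of probes (5.65%). With a replicate block the F2 count was 0 and the F1 count 6, beside 5.05% and 11.4%; the correlation of deviations between arrays of the same replicate number ran from -0.17 to 0.20. Within slides 1 and 3 the F1 median was 0.00895 and 0.00315. Leaving out each array gave counts of 4 to 8 in F1, 0 to 4 in F2 and 1 to 4 in the difference. The shares of all genes in these fits were 10.2% to 14.6%, 4.21% to 7.13% and 6.73% to 9.43%. Member medians were -0.08 to -0.02 in F1 and -0.021 to 0.024 in F2.

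The direction was opposite without scaling for Kmt2b (-0.10), Nnmt (-0.075), Wdr5 (-0.039), Men1 (-0.011), Kdm4c (-0.12), Kdm2a (-0.019) and Setd6 (-0.026) in F1, Suv39h1 (-0.052), Prdm2 (-0.042) and Mat2a (0.013) in F2, and Kmt2b (-0.077) and Suv39h2 (-0.048) in the difference. It was opposite with the mean of probes for Nsd3 in F1 (0.071) and the difference (0.13), Kmt2d (-0.0064) and Prdm2 (-0.039) in F2, and Prdm2 in the difference (0.0030). Scaling to the 75th percentile gave Mat2b 0.024 in F1, and Kmt2b 0.022, Suv39h1 -0.0090 and Mat2a 0.056 in F2. Normexp gave Mat2b 0.0092 in F1, and Kmt2b 0.032 and Mat2a 0.00011 in F2. Array weights gave Nsd2 0.029, Suv39h1 -0.13, Prdm2 -0.030 and Mat2a 0.0030 in F2. The sex measure gave Dot1l 0.075 in F1 and Mat2a 0.0039 in F2. The authors' table gave Kmt2b 0.0025 in F2, and leaving out CD F2 replicate 6 and MD F2 replicate 3 together gave 0.012. Leaving out each array gave Mat2b -0.066 to 0.014 in F1, and in F2 Kmt2b -0.073 to 0.061, Nsd2 -0.10 to 0.014, Suv39h1 -0.37 to 0.23, Mat2a -0.049 to 0.021 and Mat2b -0.026 to 0.069.

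Pools hide variation between mice, the labels give no sex, and each brightest probe reads part of a gene's transcripts; other probes of the same gene often differed in size or direction. Slides are nested in generation, so levels are not compared between F1 and F2. An adjusted p above the threshold does not show that values were equal, and signals near background limit what dim probes can show. RNA levels say nothing of enzyme activity or of histone methylation, which were not measured.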
